A study of Mus musculus with 20 samples.

Results

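The 10 genes of the NF-kB system described here are the subunits Nfkb1, Nfkb2, Rela, Relb and Rel, the inhibitors Nfkbia, Nfkbib, Nfkbie and Tnfaip3, and the kinase Ikbkb. They were chosen by name, as the transcription factor with its direct regulators, and followed across the aged mouse intervertebral disc. These 10 of the 51789 genes in the deposited table were each found under a single gene identifier. All 10 reached the level required for testing. In all, 16383 genes were tested.

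NF-kB is a family of transcription factors that bind DNA as dimers and switch on inflammatory, survival and immune genes. In resting cells the IkB inhibitors hold the dimers in the cytoplasm, and the IKK kinase complex marks the inhibitors for destruction when cytokine or pattern receptors are engaged. Several inhibitor genes are themselves NF-kB targets, which closes a negative feedback loop. In the intervertebral disc the pathway is best known for inducing matrix-degrading enzymes in response to cytokines. Its activity is set mainly by protein breakdown and movement into the nucleus, neither of which RNA levels measure.

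The samples came from BL6 mice, and the labels name no engineered allele. The soft centre of the disc, the nucleus pulposus (NP), and its outer lamellar ring, the annulus fibrosus (AF), were dissected under a microscope at 24 months of age, after 6 months of weekly intraperitoneal injections that began at 18 months. Vehicle mice received DMSO and treated mice received MDL-800, a small-molecule activator of the deacylase SIRT6, in the same amount of DMSO, so every animal was exposed to DMSO. Each of the 4 groups (NP vehicle, NP MDL-800, AF vehicle, AF MDL-800) held 5 libraries, named here by the numbers in their sample labels. Nothing in the labels says whether NP and AF libraries came from the same mice or whether discs were pooled, so p-values measure the spread between these libraries.

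Depth, estimated from the steps of the low values, lay between 12400000 and 22500000 reads per library, which put between 31 reads (Nfkbie) and 3542 reads (Nfkb1) on a member in a library. The 12 NP markers summed to between 26430 and 31720 scaled FPKM in NP vehicle and between 3092 and 15850 in AF vehicle. Car3 carried most of that sum, at a mean of 20340 in NP vehicle, and 8 of the 12 were called higher in NP, among them T (brachyury) and Krt19, whereas Foxf1, Pax1, Nog and Cd9 were called lower. The 13 AF markers summed to between 827 and 1614 in NP vehicle and between 3478 and 11540 in AF vehicle, with 11 called lower in NP. Fmod went the other way, at a mean of 1001 in NP vehicle and 703 in AF vehicle, and made up most of the NP sum. No marker of either list was at 0 in all libraries. The AF libraries also held far more blood and marrow cell transcripts: 6 leukocyte markers (Ptprc, Cd52, Coro1a, Laptm5, Rac2 and Spi1) summed to between 428 and 1082 in AF vehicle against 17.2 to 180 in NP vehicle, with none of the 6 at 0 throughout. Libraries also differed in how level tracked the GC content of genes. The slope was fitted to each library's deviations from the mean of its own tissue, so it is relative within NP or within AF. This GC slope was -0.25 (log2 per 10 percentage points) in libraries 1 and 2 of NP vehicle, -0.27 in library 12 of AF vehicle and -0.14 in library 27 of AF MDL-800, and between -0.02 and 0.12 in the other 16. Since these are bulk samples, fewer cells of a type and less RNA per cell cannot be told apart.

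The promoters are shown because inhibitor and subunit genes are feedback targets of NF-kB itself, and the members' RNA is what was measured. RefSeq windows on GRCm38.p6, from 250 bases before to 50 bases after a transcription start, were found for 7 members and were searched on both strands for the kappaB consensus, the sequence pattern that NF-kB dimers bind. Nfkb2, Rel, Nfkbia, Nfkbie and Tnfaip3 held at least 1 match, whereas the windows of Rela and Nfkbib did not; Nfkb1, Relb and Ikbkb had no window here. Among all 32851 windows of the same length 4.51% held a match, and of the members' 10 windows 7 did. Nfkb2 and Tnfaip3 had more than 1 window. By gene, 5.14% of all genes with a window held a match, against 5 of the 7 members. The stretch of 30 bases around 1 match for each of these 5 genes reads 5′ to 3′ on the gene's strand, with the match in capitals (10 bases, or 11 where matches on both strands overlap).
Nfkb2: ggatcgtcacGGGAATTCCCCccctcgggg
Rel: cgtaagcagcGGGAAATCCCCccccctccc
Nfkbia: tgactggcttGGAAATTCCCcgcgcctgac
Nfkbie: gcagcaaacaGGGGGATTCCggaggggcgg
Tnfaip3: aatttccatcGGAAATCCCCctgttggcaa

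The Nfkb2 stretch lies at chr19:46304688-46304717 on the plus strand and its match begins 39 bases before the start. The Rel stretch lies at chr11:23771042-23771071 on the minus strand, with the match beginning 92 bases before the start. For Nfkbia the stretch is chr12:55492657-55492686 on the minus strand, 29 bases before the start. For Nfkbie it is chr17:45555584-45555613 on the plus strand, 106 bases before the start. For Tnfaip3 it is chr10:19015403-19015432 on the minus strand, 12 bases before the start. Of these 5 genes Nfkb2, Rel, Nfkbia and Nfkbie were called lower in NP than in AF with vehicle, as described below, and Tnfaip3 was not, nor were Rela and Nfkbib, whose windows hold no match. No difference between genes with and without a match was tested. A match describes the letters only and says nothing of binding.

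On GRCm38 the subunit genes lie at chr3:135584655-135691547 (Nfkb1, minus strand), chr19:46304320-46312385 (Nfkb2, plus), chr19:5637483-5648130 (Rela, plus), chr7:19606217-19629438 (Relb, minus) and chr11:23736847-23770970 (Rel, minus). The inhibitors lie at chr12:55489410-55492647 (Nfkbia, minus), chr7:28758251-28767512 (Nfkbib, minus), chr17:45555703-45563169 (Nfkbie, plus) and chr10:19000910-19015657 (Tnfaip3, minus), and Ikbkb at chr8:22659212-22706589 (minus). All are protein-coding.

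Values are FPKM, fragments per kilobase of transcript relative to the size of the library, divided by a factor for each library. Being per length, they can be set side by side between genes. Values listed for a group run in the order of library number: 1, 2, 3, 5 and 6 for NP vehicle, 15, 18, 19, 20 and 22 for NP MDL-800, 8, 9, 10, 12 and 13 for AF vehicle, and 25, 27, 28, 29 and 30 for AF MDL-800.

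Rela encodes the main transactivating subunit of the classical pathway. Its levels were 21.5, 21.7, 34.1, 42.6 and 42.6 scaled FPKM in NP with vehicle and 44.0, 52.9, 42.7, 44.2 and 44.5 with MDL-800. In AF they were 33.95, 31.1, 37.5, 19.0 and 33.0 with vehicle and 35.9, 22.7, 30.7, 32.0 and 33.2 with MDL-800. After scaling, all 5 NP MDL-800 libraries lay above every library of the other 3 groups, narrowly so over NP vehicle (42.7 against 42.6). The lowest value of each of the other groups belonged to a library with a GC slope under -0.1.

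Nfkb1 encodes the partner of Rela in the classical dimer, made as a longer precursor that itself acts as an inhibitor. Its levels were 20.7, 17.6, 26.1, 23.6 and 27.0 in NP with vehicle and 24.7, 25.1, 22.4, 25.1 and 20.7 with MDL-800. The AF levels were 44.5, 30.4, 32.7, 29.5 and 42.3 with vehicle and 33.0, 30.2, 38.0, 35.6 and 39.6 with MDL-800. The tissues did not overlap, and within each tissue the treatments did.

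Nfkb2 and Relb are the pair of the non-canonical pathway, and Nfkb2 is also made as an inhibitory precursor. Nfkb2 stood at 4.31, 4.44, 5.93, 4.96 and 6.11 in NP with vehicle and at 6.83, 6.51, 6.71, 7.65 and 7.55 with MDL-800, with no overlap of the scaled values. It stood at 9.28, 7.83, 6.88, 5.68 and 8.89 in AF with vehicle and at 8.63, 5.66, 8.22, 8.15 and 9.13 with MDL-800. Relb varied within groups as much as between them, with means of 5.03 ± 1.19 (vehicle) and 5.06 ± 1.06 (MDL-800) in NP, and 6.20 ± 0.913 (vehicle) and 5.97 ± 0.559 (MDL-800) in AF (SD, n = 5 each).

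Rel encodes c-Rel, a subunit best known from lymphoid and myeloid cells, and was the lowest subunit in every group. Its levels were 2.65, 2.15, 2.39, 1.96 and 2.57 in NP with vehicle and 1.96, 2.49, 1.74, 1.78 and 1.90 with MDL-800. The AF levels were 4.90, 3.36, 2.90, 4.25 and 5.04 with vehicle and 3.27, 3.49, 4.52, 3.60 and 4.37 with MDL-800. Every AF library lay above every NP library.

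Nfkbia encodes IkB alpha, the fast-cycling inhibitor. Its levels were 27.1, 26.7, 31.3, 29.8 and 34.1 in NP with vehicle and 37.1, 51.5, 32.3, 42.8 and 48.8 with MDL-800. The AF levels were 57.3, 44.1, 49.4, 31.8 and 46.2 with vehicle and 44.9, 45.5, 48.4, 47.4 and 67.2 with MDL-800. Only NP MDL-800 library 19 fell within the range of the NP vehicle libraries.

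Nfkbib encodes IkB beta, a slower-cycling inhibitor. It was 4.08, 4.11, 6.20, 7.01 and 7.53 in NP with vehicle and 9.06, 8.94, 8.28, 12.1 and 9.23 with MDL-800. It was 6.89, 6.92, 5.96, 6.22 and 7.73 in AF with vehicle and 6.85, 6.59, 7.71, 8.25 and 10.3 with MDL-800. The NP groups did not overlap, and the AF groups did. The gene overlaps the protein-coding gene Sirt2 on the opposite strand by 778 nucleotides in GENCODE, and whether the counting used strand is not given in the sources used here.

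Nfkbie encodes IkB epsilon, an inhibitor known mainly from haematopoietic cells, and was the member with the widest tissue difference. Its levels were 1.33, 1.25, 1.28, 1.05 and 1.52 in NP with vehicle and 1.17, 1.66, 0.888, 1.30 and 1.58 with MDL-800. The AF levels were 4.99, 4.52, 3.29, 4.38 and 5.05 with vehicle and 3.87, 3.35, 4.00, 3.42 and 5.93 with MDL-800. No AF library came near the NP range.

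Tnfaip3 encodes a ubiquitin-editing enzyme that shuts off signalling upstream of IKK. It had the means 5.73 ± 1.27 (vehicle) and 6.30 ± 1.34 (MDL-800) in NP, and 6.53 ± 1.68 (vehicle) and 7.62 ± 1.72 (MDL-800) in AF (SD, n = 5 each). All 4 groups overlapped. The highest library of each AF group, vehicle 12 at 8.98 and MDL-800 27 at 10.5, was the library with the lowest Rela of that group.

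Ikbkb encodes the catalytic kinase that phosphorylates the IkB proteins in the classical pathway. It stood at 15.2, 13.5, 15.7, 15.9 and 16.0 in NP with vehicle and at 16.6, 18.8, 11.9, 13.9 and 11.8 with MDL-800. It stood at 23.4, 24.9, 20.5, 26.7 and 27.8 in AF with vehicle and at 19.8, 20.0, 25.7, 21.8 and 25.4 with MDL-800. Again every AF library exceeded every NP library.

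**Figure D1:**
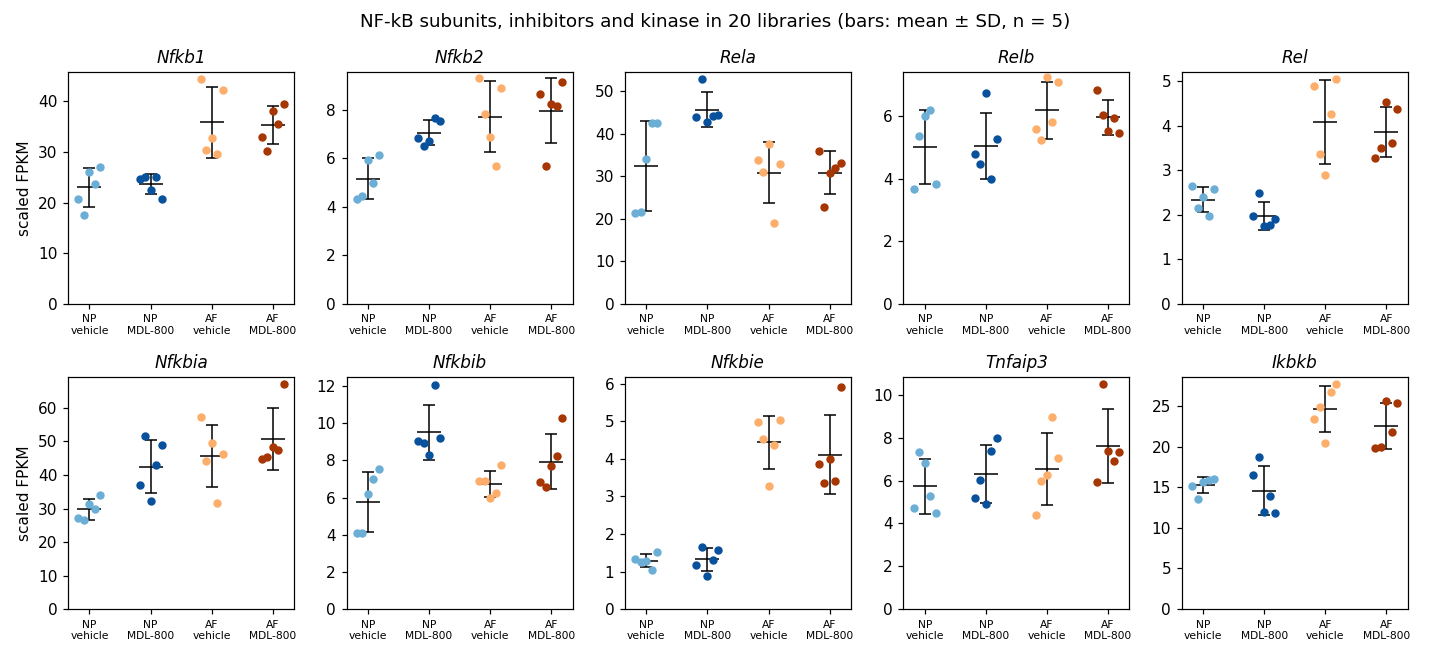
Scaled FPKM (vertical axis, from 0) of the 10 genes in the 4 groups, each point 1 library, ordered by library number within a group, with bars for the mean ± SD (n = 5). Nfkb1, Rel, Nfkbie and Ikbkb sit higher in all 10 AF libraries than in the 10 NP libraries, and Rela is highest in the 5 NP MDL-800 libraries.

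The order of the members differed between the tissues at the top and the bottom. In NP vehicle Rela (mean 32.5) led Nfkbia (29.8) and Nfkb1 (22.99), but these neighbours overlapped. In AF vehicle Nfkbia (45.8) led Nfkb1 (35.9), Rela (30.9) and Ikbkb (24.7), each overlapping the next. Below Ikbkb came a band of overlapping genes at 5.03 to 5.79 in NP vehicle (Nfkbib, Tnfaip3, Nfkb2, Relb) and at 6.20 to 7.71 in AF vehicle. Rel and Nfkbie closed the list in every group: in NP, Rel stood above Nfkbie without overlap under both treatments, whereas in AF their ranges overlapped.

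The make-up of the subunit transcripts followed from these levels. Rela made up 46.9 ± 5.75% of the summed FPKM of the 5 subunits in NP with vehicle and 54.7 ± 2.03% with MDL-800, against 36.3 ± 5.27% and 36.7 ± 2.86% in AF (SD, n = 5 each). Nfkb1 took 34.2 ± 3.43%, 28.3 ± 1.86%, 42.3 ± 3.84% and 42.1 ± 2.7% in the same order. The level ratio of Nfkb1 to Rela was therefore between 0.465 and 0.569 in NP MDL-800, between 0.554 and 0.963 in NP vehicle, and between 0.872 and 1.56 in AF vehicle. Nfkbia supplied most of the RNA of the 3 IkB inhibitors in every group, with a mean share between 79.5% and 81.0%. Nfkbie supplied 3.51 ± 0.524% of it in NP vehicle and 7.97 ± 1.74% in AF vehicle.

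Comparing NP with AF in vehicle mice asked how the compartments differ without the drug. There were 6 members lower in NP and the other 4 did not pass the test (limma, adjusted p under 0.05 over 16383 genes). The 6 were the subunits Nfkb1, Nfkb2 and Rel, the inhibitors Nfkbia and Nfkbie, and the kinase Ikbkb. Among all genes tested 33.9% were lower in NP and 21.8% higher, so a tissue difference was common. The members' median difference was -0.54 on the scale of log2(scaled FPKM + 1), against -0.08 over all genes. All differences below are on this scale, which understates changes of low genes.

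Nfkbie showed the largest difference of the 10, -1.25 (SE 0.13, limma adjusted p = 2.43e-05), from means of 1.28 ± 0.171 in NP and 4.45 ± 0.708 in AF. Ikbkb followed at -0.65 (SE 0.10, adjusted p = 0.000285) and Nfkb1 at -0.62 (SE 0.15, adjusted p = 0.00574). For these 3 and for Rel, at -0.59 (SE 0.15, adjusted p = 0.00573), the 5 NP libraries all lay below the 5 AF libraries. Such separation in this direction held for 25.9% of all genes, and in the other direction for 15.1%. Nfkbia fell in NP relative to AF by 0.58 (SE 0.15, adjusted p = 0.00565) and Nfkb2 by 0.50 (SE 0.15, adjusted p = 0.015), both with overlapping libraries. Rela differed by 0.04 with a 95% interval from -0.49 to 0.58. Relb (-0.27, interval -0.62 to 0.08), Nfkbib (-0.22, -0.59 to 0.15) and Tnfaip3 (-0.15, -0.56 to 0.25) did not pass either.

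Nfkb2 and Rel kept their calls under 7 of 8 alternative settings and lost them under quantile normalization. Under quantile normalization, which moved the median difference of all genes from -0.08 to 0.20 and the split of calls from 3577 higher and 5550 lower to 6474 and 3923, Nfkb2 was at -0.10 (limma adjusted p = 0.528) and Rel at -0.06 (adjusted p = 0.744), and 4 members stayed called. Without the 3 vehicle libraries of GC slope under -0.1 all 6 kept an adjusted p under 0.05.

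In MDL-800 mice the same comparison found 4 members lower in NP and Rela higher. Nfkbie was at -1.13 (SE 0.15, limma adjusted p = 9.35e-05), Rel at -0.71 (SE 0.12, adjusted p = 0.000331), Ikbkb at -0.61 (SE 0.14, adjusted p = 0.00308) and Nfkb1 at -0.56 (SE 0.09, adjusted p = 0.000432). Rela rose in NP relative to AF by 0.56 (SE 0.12, adjusted p = 0.00198), from 30.9 ± 4.97 in AF to 45.7 ± 4.11 in NP. All 5 separated the tissues without overlap. Of all genes 37.2% were called lower and 25.6% higher in NP, and the groups did not overlap for 30.5% and 18.5%. Nfkb2 (-0.14) and Nfkbia (-0.25), called in vehicle mice, did not pass here, but the difference of the tissue effects is the difference of treatment effects tested below, which no member passed.

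Without AF MDL-800 library 27, the one with a GC slope of -0.14, Rela kept its call at 0.46 (limma adjusted p = 0.00113) and Nfkb2 was called lower at -0.25 (adjusted p = 0.032). Leaving out NP library 19 brought Relb to -0.31 (adjusted p = 0.0345), and leaving out AF library 30 brought Nfkbib to 0.33 (adjusted p = 0.0374). Under quantile normalization Rel lost its call at -0.16 (adjusted p = 0.236) and Nfkbib gained one at 0.56 (adjusted p = 0.00344), while the split of all calls went from 4188 higher and 6102 lower to 6919 and 4290.

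**Figure D2:**
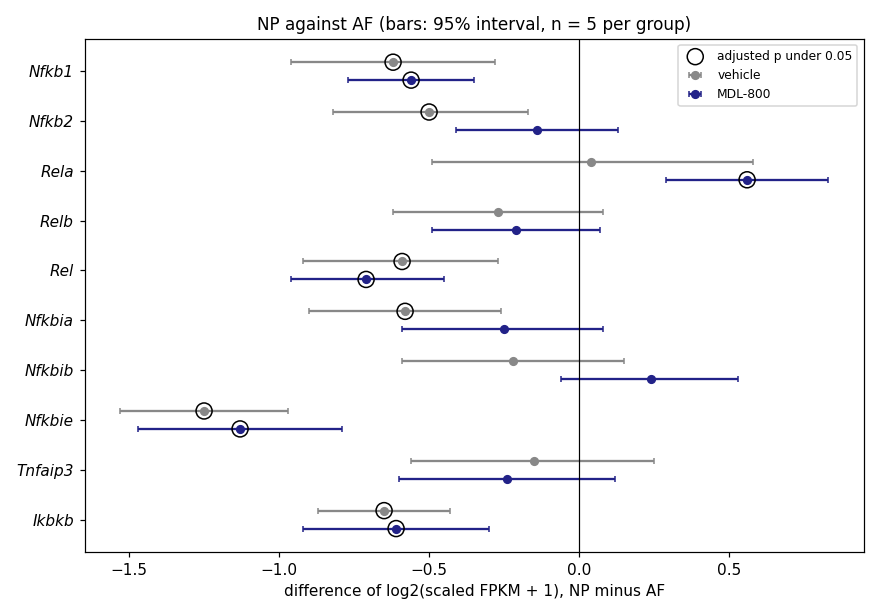
Difference of log2(scaled FPKM + 1), NP minus AF (horizontal axis), for each gene in vehicle (grey) and MDL-800 mice (blue), with 95% intervals and n = 5 per group. Ringed points have a limma adjusted p under 0.05: 6 in vehicle mice, all negative, and 5 in MDL-800 mice, with Rela at 0.56 the positive one.

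Leukocyte transcripts moved with the tissue difference. Nfkbie was highest in the library with the highest leukocyte marker sum in all 4 groups. In AF MDL-800 the library order was the same for both: library 30 led with a marker sum of 1353 and Nfkbie at 5.93, then library 28 with 940 and 4.00, then 25 with 684 and 3.87, then 29 with 555 and 3.42, and library 27 was last with 423 and 3.35. In AF vehicle the order of Nfkbie likewise matched that of the marker sums, from library 13 (1082) through 8 (1073), 9 (681) and 12 (628) to 10 (428). The NP orders did not match: in NP vehicle library 5 was the middle library in marker sum (29.9) and lowest in Nfkbie (1.05), and in NP MDL-800 library 20 had the lowest sum (10.7) and the middle Nfkbie level (1.30). Over the 20 libraries Pearson's r between the log2 level and the log2 marker sum was 0.95 for Nfkbie, 0.91 for Rel and 0.87 for Ikbkb. It was 0.85 for Nfkb1, 0.65 for Nfkbia, 0.59 for Nfkb2 and -0.28 for Rela. Marker sums of other kinds gave Nfkbie a like r: 0.95 for red blood cells, 0.92 for endothelium, 0.89 for AF and -0.89 for NP. The pooled r therefore does not single out leukocytes.

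With each group's mean subtracted, r was 0.62 for Nfkbie, 0.60 for Rel, 0.47 for Nfkbia, 0.38 for Ikbkb, 0.36 for Nfkb1 and 0.32 for Nfkb2. These values describe 20 libraries whose tissue sets both measures, and with 5 libraries in a group each depends on few points. The same subtraction gave 0.30 for Rela, -0.39 for Relb and -0.39 for Tnfaip3. With red blood cell markers in place of leukocyte markers it gave 0.66 for Nfkbie, 0.67 for Nfkbia and 0.35 for Rel. Nfkbie was at 0.10 with endothelium markers, -0.26 with AF markers and -0.09 with NP markers. Rel was at -0.62 with NP markers. Other blood and marrow cells moved the same way: 9 neutrophil markers summed to between 201 and 3103 in NP vehicle and 7246 to 19170 in AF vehicle, and 10 macrophage markers to between 69.1 and 399 and 1436 to 2725. The part of these cells in the tissue differences was not tested.

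**Figure D3:**
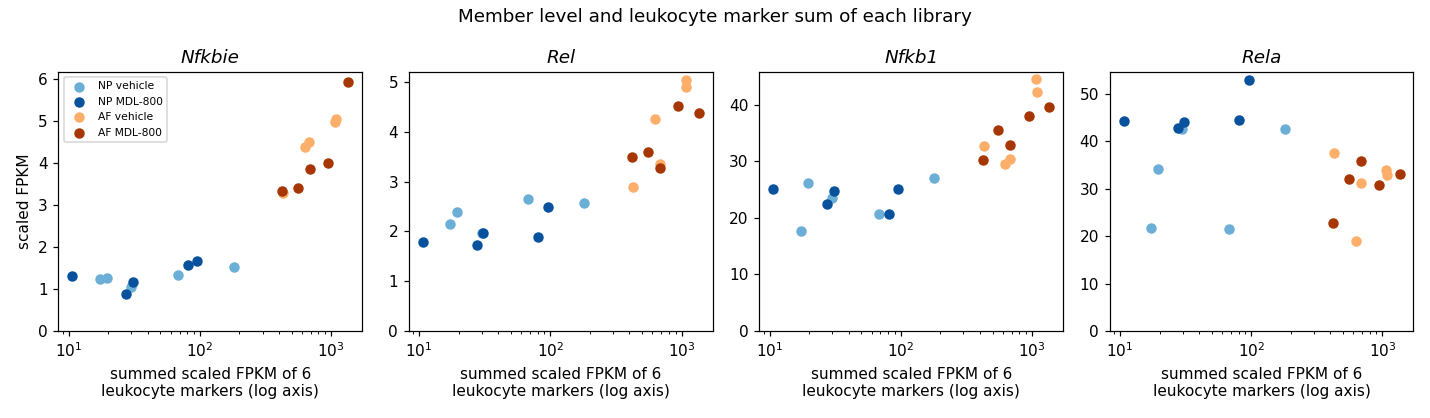
Scaled FPKM of Nfkbie, Rel, Nfkb1 and Rela (vertical axes, from 0) against the summed scaled FPKM of 6 leukocyte markers (horizontal log axis), each point 1 of 20 libraries, coloured by group. Nfkbie and Rel are low where the marker sum is 180 or less (all NP libraries) and highest in the AF libraries, whereas Rela does not follow the sum.

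MDL-800 against vehicle in NP asked whether treatment moved these genes in the disc core. No member passed the test: 0 of 10 had a limma adjusted p under 0.05, where 0.25% of all genes did (41 genes; from 2 to 189 genes on leaving out a library in turn, the fewest without library 3 of the vehicle group or 22 of the treated group, the most without vehicle library 6). Nfkb2, Rela, Nfkbia and Nfkbib had an unadjusted p under 0.05, all with higher levels in the treated libraries, where 9.11% of all genes had one in that direction. A positive difference was seen in 8 of the 10 members, against 42.6% of all genes, and their median was 0.08 against -0.03.

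Nfkbib had the largest difference, 0.66 (SE 0.17, 95% interval 0.28 to 1.03, limma adjusted p = 0.115), from a mean of 5.79 ± 1.61 with vehicle to 9.52 ± 1.48 with MDL-800. Rela was at 0.54 (SE 0.20, interval 0.10 to 0.97, adjusted p = 0.25), from 32.5 ± 10.6 to 45.7 ± 4.11. Nfkbia was at 0.48 (SE 0.13, interval 0.20 to 0.77, adjusted p = 0.119), from 29.8 ± 3.08 to 42.5 ± 7.98. Nfkb2 was at 0.40 (SE 0.11, interval 0.16 to 0.64, adjusted p = 0.131), from 5.15 ± 0.835 to 7.05 ± 0.515. For Nfkb2, Rela and Nfkbib all 5 treated libraries lay above the 5 vehicle libraries in scaled FPKM, which held for 3.5% of all genes in this direction. Before scaling, the Rela groups overlapped, with vehicle libraries 5 and 6 at 43.17 FPKM and treated library 20 at 41.79. For Nfkb2, vehicle library 6 and treated library 18 tied at 6.19 before scaling. On simulated data the test found 0% of genes shifted by 0.5 and 69.5% of those shifted by 1, and the members' 4 differences lay between 0.40 and 0.66. The simulated noise was the mean spread over all 4 groups, not that of the NP groups. These shares therefore do not give the power of this comparison.

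The other 6 members had differences between -0.17 and 0.12, none with an unadjusted p under 0.05. Rel was at -0.17 (interval -0.40 to 0.06), Tnfaip3 at 0.12 (-0.24 to 0.48), Ikbkb at -0.08 (-0.36 to 0.20), Nfkb1 at 0.05 (-0.21 to 0.31), Nfkbie at 0.02 (-0.24 to 0.27) and Relb at 0.02 (-0.35 to 0.38). Sirt6, the gene of the enzyme that the compound is meant to activate, was at 0.68 (SE 0.15, limma adjusted p = 0.082), from 5.03 ± 1.33 to 8.49 ± 0.444. An activator acts on the protein, so its RNA level is no check of the treatment. In MDL-800 mice Sirt6 was higher in NP than in AF by 0.59 (SE 0.20, limma adjusted p = 0.0229), a call that the replicate block did not keep (0.75, adjusted p = 0.1).

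GC slope and immediate early transcripts moved with this comparison. Relative to the NP mean, NP vehicle slopes ran from -0.25 to 0.03 and NP MDL-800 slopes from 0.06 to 0.12, without overlap. The members with the 3 highest transcript GC contents were Nfkb2 and Rela (both 59.4%) and Nfkbib (58.8%), the 3 whose groups did not overlap after scaling. With group means subtracted, the level over the 20 libraries followed the GC slope with r = 0.90 for Rela, 0.87 for Nfkb2, 0.68 for Nfkbib, 0.62 for Nfkbia and -0.50 for Tnfaip3. Nfkb1, whose GC content of 44.9% is the second lowest of the 10, followed it too (r = 0.69). Relb and Nfkbie, at 56.8% and 55.4% GC, had r = 0.12 and 0.19, so the members' r did not simply rank by GC content. Without NP vehicle libraries 1 and 2, Rela was at 0.20 (limma adjusted p = 0.542), Nfkb2 at 0.27 (adjusted p = 0.398), Nfkbia at 0.39 (adjusted p = 0.424) and Nfkbib at 0.40 (adjusted p = 0.309). With the GC trend of each library removed, they were at 0.34, 0.20, 0.41 and 0.47. All 4 kept a positive sign in both. Rela was smaller by over 1.5 times in both, Nfkbib without the 2 libraries and Nfkb2 with the GC trend removed.

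The 11 immediate early genes (Fos, Jun, Egr1 and the like), which can rise within minutes of tissue handling, summed to between 136 and 961 in NP vehicle and between 520 and 1136 in NP MDL-800. A response to handling and one to the treatment cannot be told apart here. All 11 had positive differences with a median of 1.08, where 42.6% of all genes did, and 0 were called by limma. At an unadjusted p under 0.05 there were 5, all higher, where 9.11% of all genes had one in that direction. NP vehicle libraries 1 and 2, lowest in Rela, Nfkbia and Nfkbib, also had the lowest sums, 136 and 236. The leukocyte marker sums of the NP groups overlapped (17.2 to 180 with vehicle and 10.7 to 95.6 with MDL-800). The part of the immediate early response in the members' values was not tested. Sirt2, which overlaps Nfkbib, had a difference of 0.36 (SE 0.11, limma adjusted p = 0.157), from a mean of 41.0 to 52.6.

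**Figure D4:**
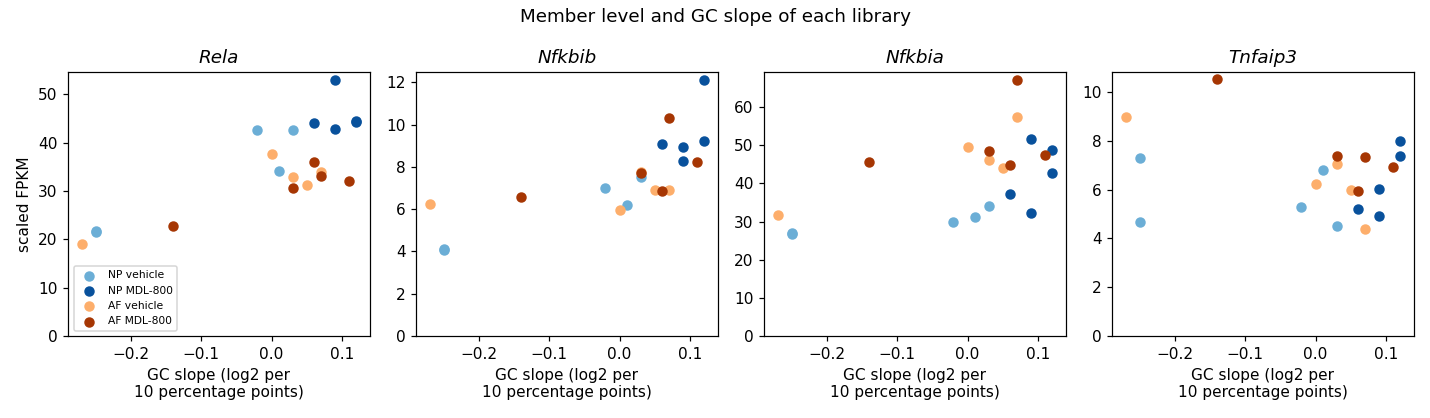
Scaled FPKM of Rela, Nfkbib, Nfkbia and Tnfaip3 (vertical axes, from 0) against the GC slope of each library (horizontal axis, log2 per 10 percentage points of GC), each point 1 of 20 libraries, coloured by group. Slopes are relative to the mean of the library's own tissue, so NP and AF slopes do not share a zero. The 4 libraries with a slope under -0.1 have the lowest Rela of their groups, and the NP MDL-800 libraries all have slopes of 0.06 or more.

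In AF, MDL-800 against vehicle gave no difference that passed for any member. None of the 10 had a limma adjusted p under 0.05 (0% of all genes did), none had an unadjusted p under 0.05 (1.65% of all genes), and no member's groups were free of overlap (0.226% of all genes). Differences ran from -0.12 for Ikbkb (95% interval -0.38 to 0.13) to 0.20 for Tnfaip3 (-0.20 to 0.61) and Nfkbib (-0.09 to 0.48). Rela was at 0.02 (-0.39 to 0.43), Nfkb2 at 0.04 (-0.30 to 0.39) and Nfkbia at 0.15 (-0.22 to 0.52). Nfkb1, Relb, Rel and Nfkbie lay at -0.01, -0.04, -0.06 and -0.10. The simulated test for AF, with the same noise averaged over all 4 groups, found 0% of shifts of 0.5 and 69.5% of shifts of 1. Sirt6 was at 0.16 (SE 0.24, limma adjusted p = 1). All 11 immediate early genes had positive differences in AF too, where 52.6% of all genes did. Their median was 0.61, and 0 were called (limma; 1 at an unadjusted p under 0.05).

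**Figure D5:**
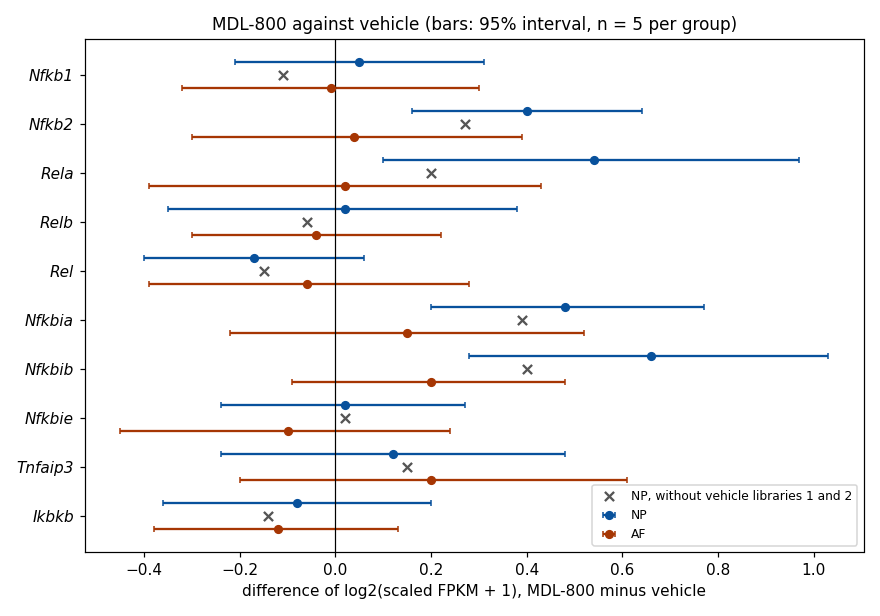
Difference of log2(scaled FPKM + 1), MDL-800 minus vehicle (horizontal axis), for each gene in NP (blue) and AF (brown) with 95% intervals and n = 5 per group. Crosses give the NP value without vehicle libraries 1 and 2, which for Rela is 0.20 in place of 0.54.

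Whether the treatment difference itself differed between NP and AF was tested across all 20 libraries. No member passed (limma adjusted p = 1 for each of the 10, with 0% of all genes called). At an unadjusted p under 0.05 there was 1 member, Nfkbib, with an NP minus AF difference of 0.46 (SE 0.21, 95% interval 0.01 to 0.91), where 3.73% of all genes had such a p. Rela was at 0.52 (SE 0.28, 95% interval -0.07 to 1.11), Nfkb2 at 0.35 (SE 0.19, -0.04 to 0.75) and Nfkbia at 0.33 (SE 0.21, -0.12 to 0.78). That count of 1 changed with the libraries used: on leaving out 1 library it was 4 without AF vehicle library 12, 3 without library 6, and 2 without library 5 or 30. It was 0 without any of NP vehicle 1 and 2, NP MDL-800 15, 20 and 22, AF vehicle 8, 9 and 13, and AF MDL-800 25, 27, 28 and 29. The comparisons share libraries, since NP vehicle enters both the NP treatment and the vehicle tissue comparison, so their values are given side by side only.

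The wider pathway was read from 6 lists of genes. In each tissue comparison of these lists the blood and marrow markers above moved as well, being lower in NP for 6 of 6 leukocyte, 9 of 9 neutrophil and 10 of 10 macrophage markers, and their part was not tested. The counts stand against 33.9% of all genes lower and 21.8% higher in NP with vehicle, and 37.2% and 25.6% with MDL-800. Some listed genes reached 1 FPKM in 5 libraries only in AF, and such genes could hardly be called other than lower in NP, so they are counted apart. The adjusted p-values of such genes below therefore carry no weight as tests of a tissue difference. Among all 16383 genes tested there were 2321 genes that passed through AF alone. The shares over all genes include these 2321, and no share was computed without them. Counts of the remaining listed genes therefore have no like share beside them.

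Of the 20 tested NF-kB target genes, 9 passed the filter on low values through AF alone. Of the other 11, 8 were lower in NP than in AF with vehicle and 9 with MDL-800, and 0 were higher. The named targets include the matrix proteases Mmp3, which passed through AF alone (0.291 ± 0.268 in NP vehicle and 19.1 ± 7.16 in AF vehicle; -3.91, limma adjusted p = 3.98e-06) and Mmp13 (2.80 ± 2.52 and 79.5 ± 25.7; -4.60, adjusted p = 1.6e-05). The survival gene Bcl2a1b, which also passed through AF alone and has near-identical copies among which reads can be split, was at -2.77 (adjusted p = 2.22e-05). The macrophage growth factor Csf1 was at -1.92 (adjusted p = 2.9e-05), and with MDL-800 the leukocyte adhesion receptor Vcam1 was at -3.70 (adjusted p = 1.23e-06).

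Of the 8 tested ligands, 6 were lower and 2 higher in NP under both treatments, but 5 of the lower ones (Il1a, Ltb, Tnf, Tnfsf11 and Tnfsf13b) passed the filter through AF alone and 1 of the higher ones through NP alone. Tnf stood at 0.179 ± 0.144 in NP vehicle and 3.33 ± 1.23 in AF vehicle (-1.84, limma adjusted p = 3.69e-05). The B cell survival factor Tnfsf13b was at -2.25 (adjusted p = 2.12e-05), lymphotoxin beta (Ltb) at -2.42 (adjusted p = 9.24e-05) and the osteoclast factor Tnfsf11 at -1.50 (adjusted p = 0.000262). Tnfsf12, which encodes the cytokine TWEAK, went the other way: with MDL-800 it stood at 39.2 ± 2.85 in NP and 17.7 ± 4.43 in AF (1.13, adjusted p = 5.52e-05). In the same mice Il1b was at -3.28 (adjusted p = 1.2e-05).

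Of the 14 receptors, 5 passed the filter through AF alone (Cd40, Tlr1, Tlr6, Tnfrsf11a and Tnfrsf13c) and were lower in NP. Of the other 9, 5 were lower and 2 higher under both treatments. The second TNF receptor gene Tnfrsf1b stood at 2.04 ± 0.852 in NP vehicle and 16.2 ± 5.602 in AF vehicle (-2.48, limma adjusted p = 2.89e-05). Tlr1, Tnfrsf11a (RANK) and Tnfrsf13c were at -1.67, -1.78 and -1.11 in vehicle mice, with adjusted p of 6.8e-05, 8.24e-05 and 0.000181. The interleukin-1 co-receptor Il1rap was at -1.08 with MDL-800 (adjusted p = 1.1e-05).

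Of the 17 adaptors and ubiquitin ligases, 8 were lower and 3 higher under both treatments, and none passed through 1 tissue alone. Of all genes, those through AF alone included, 33.9% were lower and 21.8% higher with vehicle, and 37.2% and 25.6% with MDL-800. Myd88, the adaptor of Toll-like and interleukin-1 receptors, was at -1.32 (limma adjusted p = 0.000235), Ripk1, the scaffold kinase of the TNF receptor, at -1.34 (adjusted p = 0.000183) and Traf1 at -1.32 (adjusted p = 0.000137) in vehicle mice. Traf5, an adaptor of TNF-family receptors, was higher in NP, at 17.8 ± 2.96 against 7.49 ± 1.83 (1.16, adjusted p = 0.000167). With MDL-800 the kinase Irak4 was at -1.64 (adjusted p = 4.4e-05).

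Of the 10 other IKK subunits and kinases, 4 were lower and 1 higher in NP with vehicle, and 3 and 1 with MDL-800. The shares over all genes were 33.9% and 21.8% with vehicle, and 37.2% and 25.6% with MDL-800, those through AF alone included. Chuk, the sister catalytic subunit of Ikbkb, stood at 12.3 ± 1.47 in NP vehicle and 16.8 ± 2.19 in AF vehicle (-0.41, limma adjusted p = 0.0133), and lost its call, at -0.33, without the 3 libraries of low GC slope. Ikbke was at -1.03 (adjusted p = 0.00359), the non-canonical kinase Map3k14 at -0.53 (adjusted p = 0.0193) and Map3k7 at -0.25 (adjusted p = 0.0276). Map3k7 passed only narrowly: its adjusted p rose above 0.05 when any of NP libraries 2, 5 and 6 or AF libraries 8 and 13 was left out (up to 0.0654), and Map3k14 lost its call without AF library 13 (-0.45). All 4 lost their calls under quantile normalization. The list's count of 5 called genes dropped to 2 without AF library 13 or without the 3 libraries of low GC slope, and to 3 without NP library 2 or 5 or AF library 8. With MDL-800 the scaffold Ikbkg, which holds Ikbkb and Chuk together, rose in NP relative to AF by 0.34 (adjusted p = 0.0213), and Tbk1 was at -0.49 (adjusted p = 0.00247). Tbk1 was at -0.27 under quantile normalization, still called, and lost its call with the replicate block (adjusted p = 0.0615). The Ikbkg call was lost without NP library 19 or 22 or AF library 28 (0.27 to 0.32).

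Of the 15 other inhibitors and atypical IkB proteins, Nfkbid and Nlrc5 passed the filter through AF alone and were lower in NP. Of the other 13, 6 were lower and 2 higher in NP with vehicle, and 7 and 4 with MDL-800. The nuclear IkB protein Bcl3 stood at 1.99 ± 0.850 in NP vehicle and 9.01 ± 3.64 in AF vehicle (-1.71, limma adjusted p = 0.000471). The deubiquitinase Cyld, which dampens IKK activation, was higher in NP at 37.4 ± 4.42 against 22.5 ± 2.34 (0.71, adjusted p = 0.000234), while Otulin, which trims linear ubiquitin chains, was lower (-0.69, adjusted p = 0.000208). Nlrc5 was at -2.30 (adjusted p = 0.000308) in vehicle mice, and Nfkbid at -1.43 (adjusted p = 5.64e-05) with MDL-800. In vehicle mice the negative regulators therefore did not share a direction: Cyld was high in NP, where Nfkbia and Nfkbie were low.

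MDL-800 against vehicle called 0 genes of the 6 lists in NP or AF, and the difference between tissues likewise (limma). Without NP vehicle library 6 the list of other inhibitors had 1 called gene in NP. At an unadjusted p under 0.05 in NP, the higher ones were 3 inhibitors (Pdlim2, Tnip1, Nfkbil1), the ligand Tnfsf12 and the ubiquitin ligase Rbck1. The lower ones were Chuk, Tlr3, Tlr4 and Ccl2. Of all genes 9.11% had such a p in the higher direction, and no share was computed for the lower one. Ccl2 passed the filter through AF alone and was low in NP, with means of 0.613 (vehicle) and 0.223 (MDL-800). Among the 20 targets 7 differences were positive (median -0.07). In AF the targets had 12 positive differences (median 0.11). Of all 6 lists only Traf1 had an unadjusted p under 0.05 there, where 1.65% of all genes did. For the difference between tissues only Cxcl1 did, where 3.73% of all genes did. Cxcl1 too passed the filter through AF alone, with NP means of 0.0748 (vehicle) and 0.0127 (MDL-800). These 11 genes are named here because their p was under 0.05, not by the naming rule.

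Members varied together within groups to different degrees. With group means subtracted, over 20 libraries, r was 0.75 for Nfkb1 with Nfkb2, 0.71 for Rel with Nfkbie, 0.70 for Nfkb2 with Rela and 0.70 for Nfkb1 with Nfkbib. Tnfaip3 was at -0.51 with Rela, -0.46 with Nfkb1 and -0.45 with Nfkb2, but at 0.12 with Relb and -0.10 with Rel. Rel and Rela, members of the same protein family, were at -0.06. Rela, Nfkb2, Nfkb1, Nfkbib and, with the opposite sign, Tnfaip3 also vary with the GC slope described above.

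The genes outside the 10 whose levels were most like each member over the 20 libraries were named by Pearson's r, pooled over tissues. They were Glrx (0.99) and Glipr2 (0.98) for Nfkbie, Phf20l1 (0.98) and Actr2 (0.97) for Rel, Zfp217 and Sec61a1 (both 0.96) for Nfkb1, and Ctps and Ptprj (both 0.95) for Ikbkb. For Rela they were Arhgdia and Zswim8 (both 0.96), and for Nfkb2 Pdlim2 (0.96) and Upf1 (0.94). Pdlim2 encodes a ubiquitin ligase that ends NF-kB activity in the nucleus, and its r with Nfkb2 was 0.92 within groups. Nfkb2 and Rela followed the GC slope within groups (r = 0.87 and 0.90), and the part of that slope in these likenesses was not tested. Nfkbia was most like Gadd45g (0.92) and Cpne2 (0.90), and Nfkbib like Washc1 and Dvl1 (both 0.88). Relb and Tnfaip3 had no gene above 0.78. These are the highest of 16383 values each, chosen as such.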

How the data were processed

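RNA from NP and AF was sequenced as stranded, ribosome-depleted total RNA, per the labels' protocols. Reads were aligned with STAR 2.7.11b to mm10, per the submitters' processing notes. The authors deposited FPKM values for 51789 genes in 20 libraries; how FPKM was computed, the annotation, the sharing of reads between genes and the use of strand in counting are not given in the sources used here.

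Each library was divided by a factor (0.933 to 1.06), from 11308 genes. Genes with at least 1 FPKM in 5 or more libraries were kept (16383), and log2(scaled FPKM + 1) was tested with limma 3.58.1 in R 4.3.3 (eBayes with trend, fits of the groups compared, Benjamini-Hochberg adjustment). The difference between tissues used all 4 groups. Python 3.11.15 did the rest. P-values measure the spread between libraries, which may be technical. Depth was estimated from single-exon genes, of whose values 78.7% to 84.8% lay on whole-read steps. The tests were tested on simulated data. Coordinates, GC content and overlaps came from GENCODE on GRCm38. Promoter windows came from RefSeq.

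The 10 members were always named, with Sirt6, up to 4 called genes of each list by smallest p, and the 2 genes most like each member. Members, lists and tests were chosen with earlier results of these data known, and the relations of members with library measures, the libraries left out by GC slope and the replicate block were added after seeing the data. Alternatives were the pseudocount, filter, scaling, quantile normalization, GC trend removal and leaving out libraries.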

Additional observations from a re-analysis of the deposited data

Results flagged for a closer look

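In 5 of the 40 sets of a member in a group, 1 library stood far from the 4 others, where chance flags about 1 in 20 groups. Rela stood at 52.92 scaled FPKM in NP MDL-800 library 18, with the others between 42.74 and 44.47. Nfkbib stood at 12.09 in NP MDL-800 library 20, with the others between 8.275 and 9.226. Nfkb2 stood at 5.658 in AF MDL-800 library 27, with the others between 8.153 and 9.134; this library had the GC slope of -0.14. Nfkbia stood at 67.18 in AF MDL-800 library 30, with the others between 44.92 and 48.42, and Nfkbie at 5.928 in the same library, with the others between 3.348 and 4. That library also had the highest leukocyte marker sum of the 20, 1353, and the highest neutrophil marker sum, 32860.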

How the results depend on the processing

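The counts of members past the test stayed within 1.5 times under every alternative run; values of members near 0 changed sign, and the cause was not tested. In NP treatment Nfkb1 was at -0.11 and Relb at -0.06 without the low-GC-slope libraries, Relb at 0 under quantile normalization, and Relb at -0.13 and Nfkbie at -0.10 with the GC trend removed. In AF treatment removing the GC trend gave Nfkb1 0.01, Nfkb2 -0.01 and Rela -0.04, and leaving out the low-slope libraries gave Rela -0.04. For NP against AF in vehicle mice Rela was at -0.02 without scaling, Nfkbib at 0.01 without the low-slope libraries, and Relb, Nfkbib and Tnfaip3 at 0.14, 0.18 and 0.23 under quantile normalization. With MDL-800, quantile normalization gave Nfkb2 0.20, Relb 0.21 and Tnfaip3 0.13. For the difference of effects, Nfkb1 was at -0.09 and Ikbkb at -0.08 without the low-slope libraries, and Relb at -0.05 with the GC trend removed.

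Leaving out each library in turn gave these ranges: in NP treatment, Nfkb1 -0.04 to 0.11, Relb -0.08 to 0.09 and Nfkbie -0.04 to 0.09; in AF treatment, Nfkb1 -0.07 to 0.07, Nfkb2 -0.05 to 0.15, Rela -0.14 to 0.12, Relb -0.09 to 0.01 and Rel -0.15 to 0.01; in the vehicle tissue comparison, Rela -0.12 to 0.17 and Sirt6 -0.07 to 0.21; and for the difference of effects, Nfkb1 -0.03 to 0.12, Relb -0.04 to 0.13, Tnfaip3 -0.19 to 0.03 and Ikbkb -0.05 to 0.11.

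Numbers in the column names are shared by 5 vehicle and 3 MDL-800 pairs of NP and AF libraries. Their deviations correlated between -0.18 and 0.29 and between -0.18 and 0.17. Such values between unlike tissues cannot settle whether a shared number marks the same mouse. The labels do not say, so the main fits did not use the numbers as pairs. A replicate block on them gave 6 members called in vehicle mice, 5 with MDL-800 and 0 for the difference of effects, as without the block, while all genes called went from 3577 higher and 5550 lower to 3377 and 5406 in vehicle mice, and from 4188 and 6102 to 2989 and 4869 with MDL-800. For NP against AF with MDL-800 the block, which leaves 3 pairs, took Sirt6 from 0.59 (limma adjusted p = 0.0229) to 0.75 (adjusted p = 0.1). Depth put the fewest reads on Nfkbie, as few as 31 in a library. Its SE was not the largest of the members in any comparison. That SE cannot judge the noise from low depth, because the scale of the tests understates changes of low genes. Relative to its mean, the SD of Nfkbie was the largest of the members in NP MDL-800 (23.7%) and in AF MDL-800 (25.6%). With vehicle it was 13.3% in NP and 15.9% in AF, and not the largest.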
